A study of Mus musculus with 4 samples.

Results

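The enzymes that write, maintain and remove DNA methylation were examined in mouse embryonic stem (ES) cells that lack SOCS3. The genes were Dnmt1, Dnmt3a, Dnmt3b, Dnmt3l, Uhrf1, Tet1, Tet2, Tet3 and Tdg, and the members were all probe sets whose single gene symbol was one of these 9. This gave 20 of the 45101 probe sets on the array. They cover 8 of the 9 genes: Dnmt3a has 5 probe sets, Tet1 4, Dnmt1 3, Dnmt3b, Uhrf1 and Tet2 2 each, and Dnmt3l and Tet3 1 each. Tdg has 3 probe sets that also carry the symbols of its pseudogenes, so no value is given for it. The data were 4 arrays of total RNA, 2 labelled SOCS3 null and 2 labelled wildtype, with replicates numbered 1 and 2 in both groups. SOCS3 restrains the JAK kinases and STAT3 below cytokine receptors, and leukemia inhibitory factor, one of the keywords in the labels, is the cytokine that signals this way in ES cells. The labels give no strain, clone, passage, culture medium or feeder layer, and do not say whether replicates are separate cultures, so the p-values describe array-to-array spread that may be technical only.

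DNA methylation in mammals lies mostly on the cytosine of CpG dinucleotides. DNMT3A and DNMT3B place it on unmethylated DNA, helped by the catalytically inactive DNMT3L. After replication, UHRF1 recognises half-methylated CpGs and recruits DNMT1, which copies the mark. TET enzymes oxidise methylcytosine, and the glycosylase TDG cuts out the most oxidised forms, which base excision repair replaces with plain cytosine. ES cells are known to express de novo and maintenance enzymes together, with Tet1 and Tet2 as their main TET genes, and the extraembryonic lineages are known for lower DNA methylation than the epiblast.

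Promoter sequences are shown for the 3 genes with a called probe set, since DNA methylation lies mostly on CpG dinucleotides. They come from RefSeq on build GRCm38.p6. Each is the 250 bases before an annotated start, with CpG dinucleotides in capitals. Shown are the most upstream start of each gene and, for Dnmt3a, also the internal start 84.8 kb downstream.
Dnmt3a, upstream start, chr12:3806730-3806979, plus strand: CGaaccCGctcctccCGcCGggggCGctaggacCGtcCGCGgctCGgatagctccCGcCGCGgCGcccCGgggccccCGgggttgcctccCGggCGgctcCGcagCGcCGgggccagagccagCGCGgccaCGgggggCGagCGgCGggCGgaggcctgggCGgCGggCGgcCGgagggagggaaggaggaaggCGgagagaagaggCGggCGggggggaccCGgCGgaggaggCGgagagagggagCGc
Dnmt3a, internal start, chr12:3891494-3891743, plus strand: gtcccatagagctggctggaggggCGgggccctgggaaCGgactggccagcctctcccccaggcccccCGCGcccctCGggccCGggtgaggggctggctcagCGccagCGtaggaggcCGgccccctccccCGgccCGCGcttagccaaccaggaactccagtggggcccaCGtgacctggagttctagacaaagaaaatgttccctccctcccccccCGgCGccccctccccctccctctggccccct
Tet1, chr10:62887325-62887574, minus strand: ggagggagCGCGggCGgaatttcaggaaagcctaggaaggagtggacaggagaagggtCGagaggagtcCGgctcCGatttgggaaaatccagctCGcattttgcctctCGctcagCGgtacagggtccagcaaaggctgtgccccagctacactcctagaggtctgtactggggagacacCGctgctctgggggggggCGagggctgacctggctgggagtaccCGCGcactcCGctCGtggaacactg
Dnmt3l, upstream start, chr10:78042037-78042286, plus strand: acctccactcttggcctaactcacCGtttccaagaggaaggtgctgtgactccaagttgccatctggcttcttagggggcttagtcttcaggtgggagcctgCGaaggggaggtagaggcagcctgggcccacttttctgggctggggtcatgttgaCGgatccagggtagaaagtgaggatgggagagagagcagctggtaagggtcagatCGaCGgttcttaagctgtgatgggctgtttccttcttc
The upstream Dnmt3a promoter holds 38 CpGs, a number reached by 1.88% of the 32851 promoter windows in the table. A further Dnmt3a start close to it, whose sequence is not shown, holds 40, reached by 1.31%. The internal Dnmt3a promoter and the Tet1 promoter hold 15 each, reached by 27.3% of windows, and the upstream Dnmt3l promoter holds 5, reached by 55.6%. Later Dnmt3l starts, whose sequences are not shown, hold 4 and 3. Which Dnmt3l start these cells used was not measured. The median over all windows is 6. Of the 16 windows of all 9 genes, 2 hold the letters TTCNNNGAA bound by STAT factors, 1 of Dnmt3l at a later start and 1 of Tdg, and 0 hold AGATAA, a form of the letters bound by GATA factors. Both motifs were searched on both strands of windows that also take in the 50 bases after the start, and do not overlap each other here. TTCNNNGAA occurs in 8.3% and AGATAA in 11.2% of all windows. These matches describe letters only, and methylation was not measured.

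The arrays were first set against their labels. The brightest Socs3 probe set was at 19.3 and 12.9 in SOCS3 null, against 3024 and 1884 in wildtype, and its other probe sets also fell. Which part of Socs3 was removed is not stated. Pou5f1, a transcription factor that defines ES cells, was at 11567 and 10524 in SOCS3 null, against 10524 and 11675 in wildtype. Of 10 markers of pluripotent cells 3 fell, Sox2, Klf2 and Fgf4 (changes -1.01, -2.14 and -1.29), 1 rose, Tfcp2l1 (1.23), and 6 did not pass, Pou5f1 among them. The changes of these 6 ran from -1.70 (Zfp42, limma adjusted p = 0.0691) to -0.01 (Pou5f1). All the pluripotent cell markers named here were picked after their values were seen. The medians of the 4 arrays lay within 0.012 of each other on the log2 scale, and log2 values correlated at 0.988 between the SOCS3 null arrays, 0.995 between the wildtype arrays and 0.948 to 0.957 across groups, over probe sets that are not independent replicates. The wildtype arrays held identical values for 3383 of 45037 probe sets that are not controls, and other pairs of arrays for 1271 to 1957. Of markers of the primitive and extraembryonic endoderm, 16 of 18 tested rose in SOCS3 null cells, and the summed intensity of the 18 was 69055 and 70996 there, against 3554 and 4014 in wildtype. Hnf4a and Ttr of this list, at 9.26 to 15.5 on every array, did not pass, and Afp was not tested. Their part in the changes below was not tested. In RNA from a bulk culture, fewer cells of a type and less RNA per cell cannot be told apart.

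Dnmt3a fell in SOCS3 null cells to 0.253 of its wildtype intensity by its brightest probe set, Tet1 fell to 0.606 and Dnmt3l rose to 1.40 of wildtype. No probe set of Dnmt1, Uhrf1, Dnmt3b or Tet2 passed the test. Tests used limma on log2(intensity + 16), a scale that understates the change of dim probe sets, and changes are given on it as SOCS3 null minus wildtype. The threshold for a call was 0.05 after Benjamini-Hochberg adjustment over all 27022 probe sets tested, those whose mean log2 value reached the 40th percentile. Of the 20 member probe sets 19 were tested, and 7 were called. Of these, 6 were lower in SOCS3 null cells, where 7.3% of all probe sets tested were called lower, and 1 was higher, where 8.55% were. The median change of the 19 was -0.37, against -0.02 over all probe sets tested. Both SOCS3 null arrays lay below both wildtype arrays for 14 of the 19, against 34.8% of all probe sets tested, and above both for 2 of the 19, against 27.2%. Probe sets of 1 gene share their target gene, so these counts are not of independent items.

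**Figure D1:**
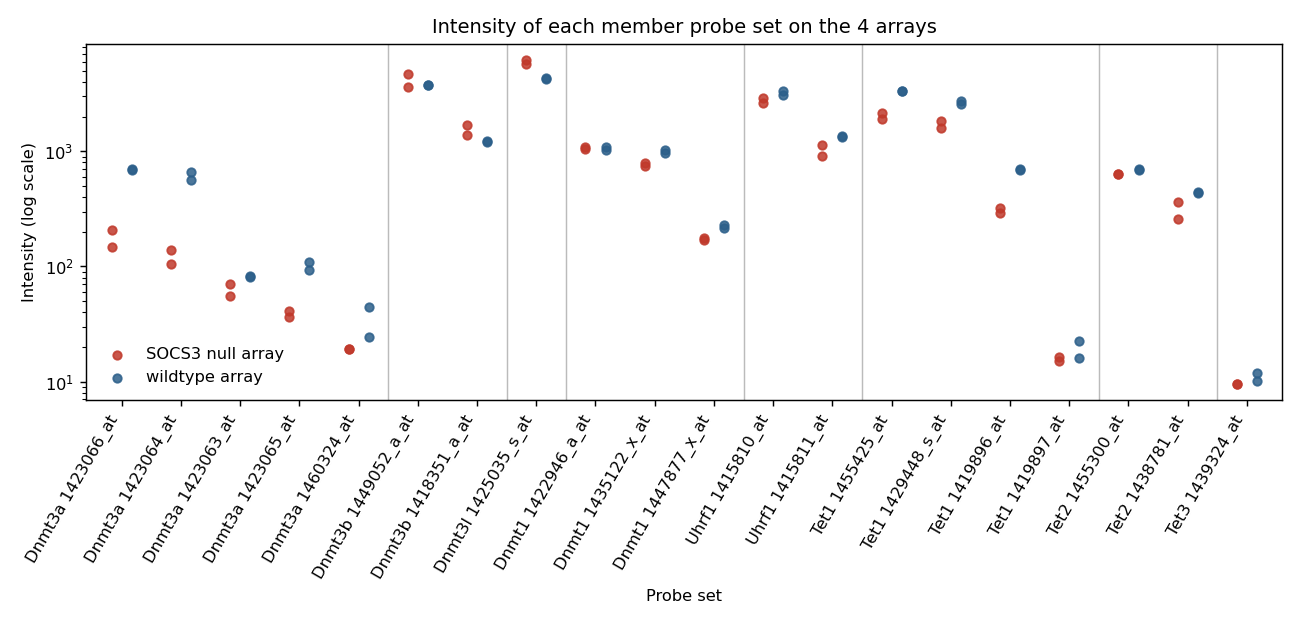
Intensity (log scale) of the 20 member probe sets on the 4 arrays, ordered by gene and, within a gene, from bright to dim, with SOCS3 null arrays at the left and wildtype arrays at the right of each tick. The brightest Dnmt3a probe set is at 148 and 206 on the SOCS3 null arrays, against 709 and 688 on the wildtype arrays, while Dnmt3l is at 5783 and 6188 on the SOCS3 null arrays, against 4326 and 4220 on the wildtype arrays.

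Among the enzymes that place new methylation, Dnmt3a had the largest change of the members. Its brightest probe set, 1423066_at, was at 148 and 206 on the SOCS3 null arrays, against 709 and 688 on the wildtype arrays. Every SOCS3 null value lay below every wildtype value by a wide margin. The means were 177 ± 41.0 in SOCS3 null and 699 ± 14.6 in wildtype (SD, n = 2), a ratio of 0.253. The log2 change was -1.91 (SE 0.17, limma adjusted p = 0.0151). A second bright Dnmt3a probe set, 1423064_at, was at 105 and 140 on the SOCS3 null arrays, against 655 and 564 on the wildtype arrays, and changed by -2.18 (SE 0.17, limma adjusted p = 0.0124). The dimmer 1423065_at was at 36.6 and 40.9 on the SOCS3 null arrays, against 109 and 93.7 on the wildtype arrays, and changed by -1.10 (SE 0.10, limma adjusted p = 0.016). These 3 fell together, and on each of them the groups stood clear of each other.

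The remaining Dnmt3a probe sets were dim and did not pass. On 1423063_at the intensities were 55.0 and 70.8 in SOCS3 null, against 82.4 and 80.7 in wildtype, a difference of -0.31 (95% interval -0.67 to 0.05, limma adjusted p = 0.189). On 1460324_at they averaged 19.2 ± 0.125 in SOCS3 null and 34.5 ± 14.2 in wildtype (SD, n = 2), a difference of -0.49 (95% interval -1.13 to 0.15, limma adjusted p = 0.234). Both lay lower on the SOCS3 null arrays, without overlap. The annotation ties all 5 Dnmt3a probe sets to the same sequence record. ES cells are known to make mainly the short Dnmt3a isoform from the internal start, and the files do not say which isoforms each probe set detects. Without the filter on dim probe sets, 1423066_at and 1423065_at lost their call (adjusted p = 0.0583 and 0.0501).

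Dnmt3b, the other active de novo enzyme, did not pass on either probe set. Its brighter probe set, 1449052_a_at, was at 3643 and 4739 on the SOCS3 null arrays, against 3766 on each wildtype array. The SOCS3 null arrays lay on either side of wildtype, and the difference was 0.14 (95% interval -0.30 to 0.58, limma adjusted p = 0.586). It was -0.05 without SOCS3 null replicate 2. The wildtype values were identical to every digit deposited, so their spread of 0 understates the error there. The dimmer 1418351_a_at was at 1398 and 1707 on the SOCS3 null arrays, against 1206 and 1234 on the wildtype arrays, a difference of 0.34 (95% interval -0.02 to 0.69, limma adjusted p = 0.166). There the groups did not overlap and SOCS3 null lay higher. The 95% intervals of both Dnmt3b probe sets lie wholly above that of 1423066_at of Dnmt3a (-2.41 to -1.41). The difference between the genes was not itself tested.

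Dnmt3l, whose product stimulates the de novo enzymes and has no catalytic activity of its own, was the only member called higher. Its 1 probe set, 1425035_s_at, was at 5783 and 6188 on the SOCS3 null arrays, against 4326 and 4220 on the wildtype arrays. All 4 values were among the brightest of the array, at the 98.7th percentile of mean log2 value, and the groups did not overlap. The change was 0.48 (SE 0.08, 95% interval 0.26 to 0.70, limma adjusted p = 0.0361). The suffix _s_at marks probes that can match transcripts of more than 1 gene, although the annotation gives this probe set 1 symbol. The call stood in 6 of the 10 alternatives that kept all 4 arrays and was lost with a pseudocount of 1 (adjusted p = 0.0558) and without the filter (0.0561), among others, while the size of the change stayed between 0.44 and 0.53 over the 14 alternatives.

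**Figure D2:**
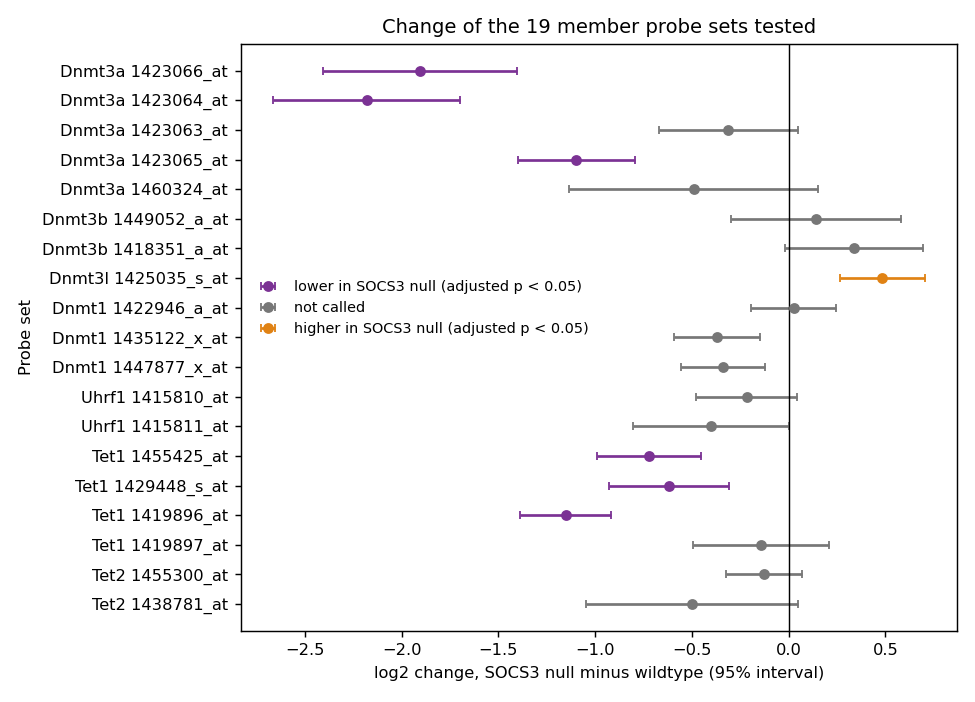
The log2 change, SOCS3 null minus wildtype, of the 19 member probe sets tested, with 95% intervals from limma. The 3 called Dnmt3a probe sets lie at -2.18 to -1.10 and the 3 called Tet1 probe sets at -1.15 to -0.62, while Dnmt3l lies at 0.48.

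The maintenance enzymes did not pass on any probe set. Dnmt1, which copies methylation onto the new strand, was at 1087 and 1054 on the SOCS3 null arrays, against 1017 and 1087 on the wildtype arrays, by its brightest probe set 1422946_a_at. The groups overlapped, and the difference was 0.03 (95% interval -0.20 to 0.25, limma adjusted p = 0.861). Its other probe sets lay lower in SOCS3 null without overlap. On 1435122_x_at the intensities were 745 and 790 in SOCS3 null, against 1023 and 973 in wildtype (difference -0.37, 95% interval -0.60 to -0.15, limma adjusted p = 0.0586). On 1447877_x_at they were 169 and 177 in SOCS3 null, against 217 and 229 in wildtype (difference -0.34, 95% interval -0.56 to -0.12, limma adjusted p = 0.0654). The suffix _x_at marks probe sets with probes that resemble other sequences. Of 14 alternatives, 1435122_x_at passed in 1, a pseudocount of 64 (adjusted p = 0.0432). The intervals of 1422946_a_at and 1435122_x_at overlap only narrowly, and each estimate lies outside the interval of the other. The difference between Dnmt1 probe sets was not tested.

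Uhrf1, which brings DNMT1 to replicated DNA, lay lower in SOCS3 null on both probe sets without passing. On the brighter, 1415810_at, it was at 2902 and 2636 on the SOCS3 null arrays, against 3108 and 3333 on the wildtype arrays, a difference of -0.22 (95% interval -0.48 to 0.04, limma adjusted p = 0.205). On 1415811_at it was at 1143 and 904 on the SOCS3 null arrays, against 1326 and 1369 on the wildtype arrays, a difference of -0.40 (95% interval -0.80 to 0.00, limma adjusted p = 0.15). The groups did not overlap on either. The second interval runs from a difference of -0.80 to none, so missing the threshold does not show that Uhrf1 stayed level.

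Of the TET genes, Tet1 fell in SOCS3 null cells on 3 of its 4 probe sets. The brightest, 1455425_at, was at 1902 and 2157 on the SOCS3 null arrays, against 3354 and 3349 on the wildtype arrays. The means were 2030 ± 180 in SOCS3 null and 3351 ± 3.81 in wildtype (SD, n = 2), a ratio of 0.606, and the change was -0.72 (SE 0.09, limma adjusted p = 0.026). On 1429448_s_at the intensities were 1596 and 1847 in SOCS3 null, against 2738 and 2558 in wildtype, and the change was -0.62 (SE 0.11, limma adjusted p = 0.0424). On 1419896_at they were 291 and 320 in SOCS3 null, against 706 and 693 in wildtype, and the change was -1.15 (SE 0.08, limma adjusted p = 0.0117). The groups stood apart on these 3. Of them, 1429448_s_at has the suffix that marks probes able to match transcripts of more than 1 gene. The dim 1419897_at was at 16.5 and 15.2 in SOCS3 null, against 15.99 and 22.7 in wildtype, near the array medians and overlapping (difference -0.14, limma adjusted p = 0.485).

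The Tet1 probe sets differed in how their calls held. On 1419896_at the call stood in all 10 alternatives that kept the 4 arrays. On the brightest, 1455425_at, it stood in 8 of these 10, and was lost without the filter at an adjusted p of 0.0643.  It was also lost with replicate numbers as a block in the fit. On 1429448_s_at it stood in 7, and was lost without the filter (0.105), with a pseudocount of 1 (0.0513) and with that block.

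Tet2 did not pass. Its brighter probe set, 1455300_at, was at 632 and 637 on the SOCS3 null arrays, against 703 and 687 on the wildtype arrays, a difference of -0.13 (95% interval -0.32 to 0.07, limma adjusted p = 0.294). On 1438781_at it was at 257 and 366 in SOCS3 null, against 447 and 435 in wildtype, a difference of -0.50 (95% interval -1.05 to 0.05, limma adjusted p = 0.173). SOCS3 null lay lower on both without overlap. Tet3, the TET enzyme known for its role in the zygote, was at 9.62 and 9.57 in SOCS3 null, against 10.1 and 11.9 in wildtype, on its 1 probe set 1439324_at. These values lay below the array medians, and the probe set stood just outside the filter, at the 39.5th percentile of mean log2 value. The dimmest member inside it, 1419897_at of Tet1, stood at the 51.1st.

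Leaving out any single array sets 1 array against 2, with the spread taken from the remaining pair and the lone array assumed to vary like it. In these fits 0 of the 19, 0 of 27022 probe sets and 0 of 12732 genes passed in limma, so the loss of the calls is not particular to the members, while 7 to 13 of the 19 and 5715 to 8552 of all probe sets had an unadjusted p under 0.05, against 9 and 9069 with all 4 arrays. The changes themselves stayed between -2.13 and -1.69 for 1423066_at of Dnmt3a, between -0.81 and -0.63 for 1455425_at of Tet1 and between 0.44 and 0.53 for Dnmt3l.

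**Figure D3:**
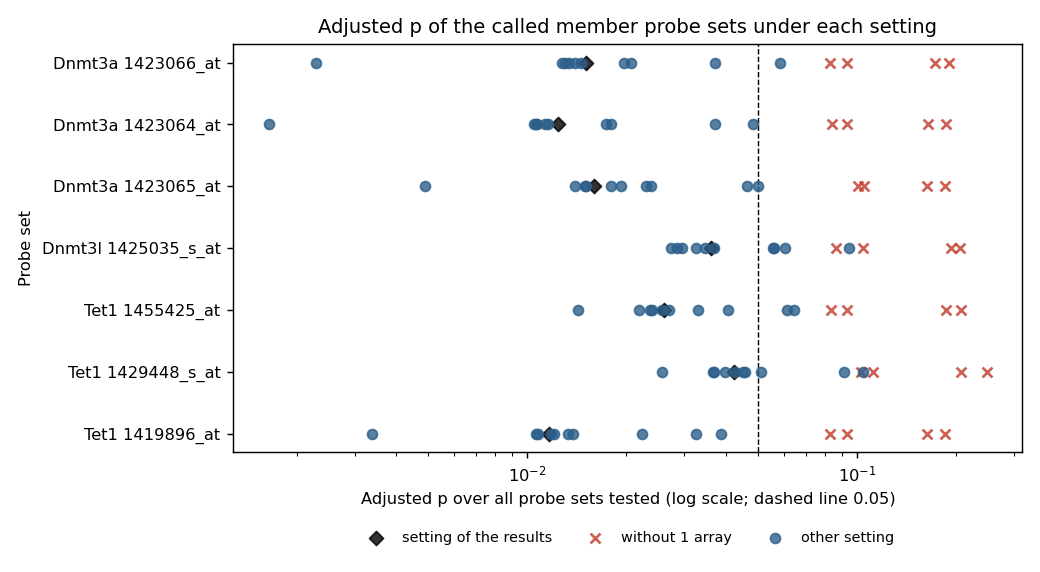
Adjusted p (log scale) of the 7 called member probe sets under the setting of the results (diamonds), with 1 array left out (crosses) and under the other settings (circles), with 0.05 as a dashed line. Every cross lies to the right of the line, at 0.083 or more, and all circles of 1423064_at and 1419896_at lie to its left.

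Genes around these enzymes were followed in the table of 12732 genes, in which the brightest probe set stands for its gene and 22.7% of genes were called, 13.1% higher and 9.55% lower in SOCS3 null. Of 12 partners of maintenance methylation, 4 fell, 0 rose and 8 did not pass, with a median change of -0.30 against -0.00 over all genes. Cdca7 fell the most of these. It encodes the partner of the remodeller HELLS, which opens chromatin to methylation, and was at 361 and 323 on the SOCS3 null arrays, against 898 and 947 on the wildtype arrays (change -1.39, SE 0.10, limma adjusted p = 0.00733). Kdm1a, a histone demethylase that stabilises DNMT1, fell by 0.68 (limma adjusted p = 0.031). Hells fell by 0.61 (0.0201) and Ehmt1, a histone H3 lysine methyltransferase, fell by 0.38 (0.0427), both named after their values were seen. Pcna, the replication clamp that binds DNMT1, named likewise, differed by -0.59 (limma adjusted p = 0.0504).

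Of 8 genes tested from families that include readers of methylated DNA, Mbd2 rose and Mbd3 fell, both linked to the NuRD corepressor, and 6 did not pass. Membership of such a family does not show that a protein binds methylated DNA. The median change was -0.11. Mbd2 was at 259 and 235 on the SOCS3 null arrays, against 99.0 and 123 on the wildtype arrays (change 1.06, SE 0.13, limma adjusted p = 0.0163). Mbd3 was at 374 and 318 on the SOCS3 null arrays, against 575 and 654 on the wildtype arrays (change -0.80, SE 0.13, limma adjusted p = 0.0262). On both the groups stood apart.

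Of 14 genes of demethylation and base excision repair tested, 2 rose, 2 fell and 10 did not pass, with a median of 0.05. Apobec2, of the cytidine deaminase family, rose by 2.40 (SE 0.47, limma adjusted p = 0.0401), and stood at 420 and 160 on the SOCS3 null arrays, against 36.8 and 36.5 on the wildtype arrays. Gadd45g, a stress response gene, rose by 1.77 (0.00934). Its relative Gadd45a fell by 1.07 (0.0274) and the uracil glycosylase Ung fell by 0.71 (0.03), both named after their values were seen. The SOCS3 null arrays of Apobec2 lay far apart, both above wildtype.

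Of 10 genes of methyl donor and cofactor supply tested, 3 fell, 1 rose and 6 did not pass, with a median of -0.23. Idh1, a cytosolic source of the ketoglutarate that TET enzymes use, rose by 1.17 (SE 0.13, limma adjusted p = 0.0133). Mat2b, a regulatory subunit for S-adenosylmethionine synthesis, fell by 0.89 (0.0158). Shmt1 of the folate cycle fell by 0.76 (0.0194) and Ahcy, which clears S-adenosylhomocysteine, fell by 0.58 (0.0363), both named after their values were seen.

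Of 8 early embryonic and ES cell genes linked to the methylation machinery, 4 fell, 0 rose and 4 did not pass, with a median of -0.60. Dppa3, which limits oxidation and maintenance of methylation in the early embryo, was at 73.2 and 167 on the SOCS3 null arrays, against 1076 and 1075 on the wildtype arrays (change -3.10, SE 0.38, limma adjusted p = 0.0157). Tcl1, a coactivator of AKT, fell by 1.83 (0.00673). Prdm14, known in mouse ES cells to repress Dnmt3b and Dnmt3l, fell by 1.51 (0.00542) and Myc fell by 0.79 (0.037), both named after their values were seen. The part of Prdm14 in the members' changes was not tested. Of 13 germline genes tested whose promoters are known to be methylated in the soma, 0 rose, 2 fell and 11 did not pass, with a median of 0.00. Those 2 were Tdrd12, of the piRNA pathway, which fell by 3.95 (limma adjusted p = 0.00702), and Stra8, a regulator of entry into meiosis, which fell by 2.07 (0.0414). The median is the value of Brdt, which lay below the array medians on every array, as did Taf7l and Dpep3. These dim genes were named after their values were seen. Dim signal limits what this list can show.

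**Figure D4:**
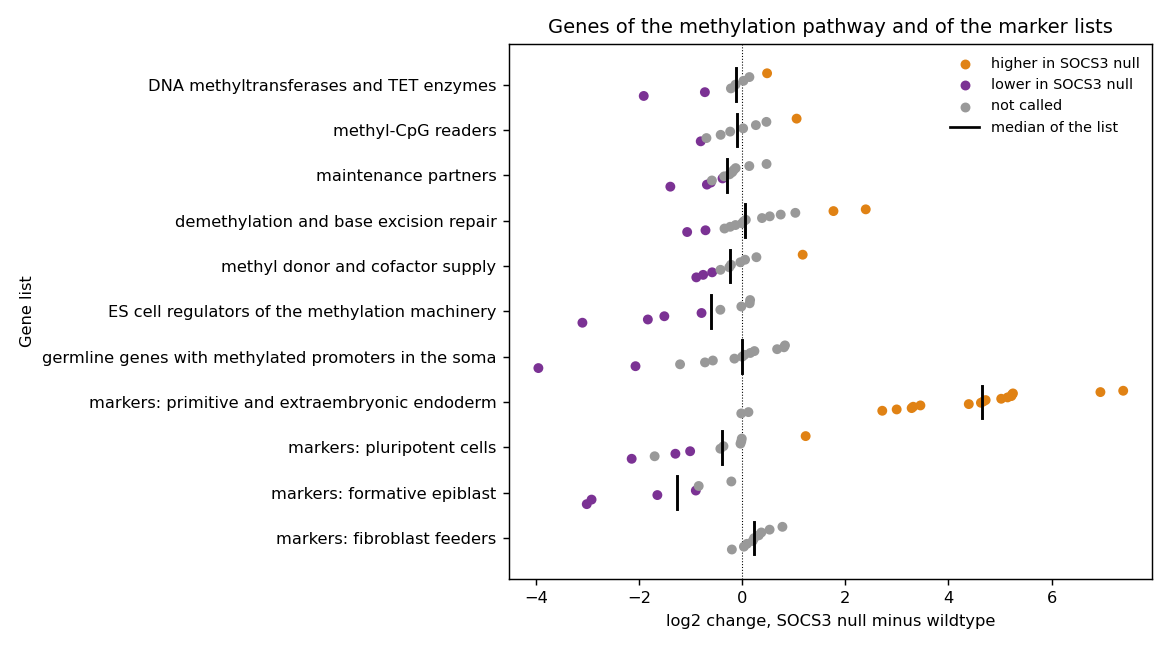
The log2 change, SOCS3 null minus wildtype, of each gene tested, by list, with called genes in colour and the list's median as a bar. The trophoblast list and the blood and endothelium list are not drawn. The 18 endoderm markers have a median of 4.65, while the medians of the methylation lists lie between -0.60 and 0.05.

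Markers of other cell types moved as follows beside these genes. Of 6 formative epiblast markers tested, 4 fell, and their summed intensity was 295 and 364 in SOCS3 null, against 1315 and 1266 in wildtype. The 10 pluripotent cell markers had sums of 56462 and 54666 in SOCS3 null, against 65247 and 67958 in wildtype. The largest part of each sum was Dppa5a, which was not called and lay at 28762 to 30012 on every array. It was named after its values were seen. The median change of the 10 was -0.39, so the sums do not show how the dimmer markers moved. Of 9 fibroblast markers tested 0 were called by limma, and their sums overlapped at 2812 and 1739 in SOCS3 null, against 1469 and 2401 in wildtype. Of 5 trophoblast markers 1 rose and 1 fell, and of 4 blood and endothelial markers 2 rose. Those 2 were Cd68 and Cdh5, while Kdr and Pecam1 did not pass. Cdh5 was dim, at 27.6 on both SOCS3 null arrays, against 6.61 and 5.17 on the wildtype arrays. The blood and endothelial markers were named after their values were seen. Dnmt3a is itself known as a gene of the formative epiblast. Of the other de novo genes, Dnmt3b lay at 0.14 and 0.34 without passing, and Dnmt3l was called higher (0.48). The part of these cell types in the members' changes was not tested.

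The genes nearest to each called member across the 4 arrays were found by the Euclidean distance between log2 values centred on each gene's mean. For Dnmt3a they were Ppfia4 and Grhl2 (distances 0.12 and 0.14), with changes of -1.82 and -2.02. For Tet1 they were Ece1 and Ccdc28a (0.03 and 0.06), with changes of -0.73 and -0.72, and for Dnmt3l they were Cpt2 and Gcdh (0.01 and 0.03), with changes of 0.48 and 0.51. Over 4 arrays such a distance reflects mostly the size of the change between groups.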

How the data were processed

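Total RNA of mouse ES cells was measured on 4 arrays, 2 SOCS3 null and 2 wildtype, and groups and replicate numbers were taken from the labels. The file deposited by the authors holds 1 linear intensity per probe set and array. How the authors summarised and normalized it is not given in the sources used here. All values were above 0 and array medians agreed closely, so they were not normalized again. Control probe sets (64) were left out. Values were taken as log2(intensity + 16), and the 27022 probe sets at or above the 40th percentile of mean log2 value were fitted with lmFit and eBayes of limma 3.58.1 in R 4.3.3, with genotype as the only term. Adjusted p-values are Benjamini-Hochberg, two-sided, over all rows of the fit. Symbols came from a platform annotation: 34945 probe sets had 1 symbol, 932 several and 9160 none. For gene lists the brightest tested probe set stood for its gene. The procedure was tested on simulated data. Members and lists were chosen with earlier results of these data known. The rule for names beyond the members took Socs3, per list the 2 called genes with the largest change, and the 2 genes nearest each called member. Further list genes, among them Pou5f1, Hnf4a, Ttr and those marked in the text, were named after their values were seen. Other settings tried were a filter at the 60th percentile or none, pseudocounts of 1 and 64, median centring, quantile normalization, a trend or robust trend in eBayes, replicate numbers as a block, the mean over a gene's probe sets, and each array left out. The number of arrays limits the precision. Figures used matplotlib 3.10.9.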

Additional observations from a re-analysis of the deposited data

How the results depend on the processing

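Of 283 values of member probe sets over all settings, none of the called ones changed direction. Uncalled ones did so on leaving out an array: Dnmt3b 1449052_a_at ran from -0.048 (without SOCS3 null replicate 2) to 0.33 and Dnmt1 1422946_a_at from -0.022 (without wildtype replicate 1) to 0.073. The 7 member calls were 5 with a pseudocount of 1, 8 with 64, 7 with quantile normalization, median centring, the filter at the 60th percentile and both eBayes trends, and 2 without the filter. Without the filter 1733 of 45037 probe sets and 1631 genes passed, against 4283 and 2888. More rows were tested there, and unadjusted p-values of the members moved as well, some up and some down. The cause of the lower counts was not tested. With the replicate number as a block, 1993 probe sets, 1914 genes and 4 members passed; the labels state no pairing, and the cause was not tested. Dnmt3l and, of Tet1, 1455425_at and 1429448_s_at then missed the threshold. With the numbers crossed, an alternative chosen after seeing the data because the deviations of same-numbered arrays from their group means correlated at -0.12, 3845 probe sets, 2817 genes and 6 members passed, Dnmt3l not among them. Leaving out each array, which sets 1 array against 2 with the spread of the remaining pair, gave 0 calls each time among members, probe sets and genes by limma, where 5715 to 8552 probe sets had an unadjusted p under 0.05. Dim signal limits Tet3, which lay below the array medians, and 1419897_at of Tet1, which lay near them.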
